A study of Mus musculus with 24 samples.

Results

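Cytochrome P450 enzymes of families 1 to 4, carboxylesterases and aldehyde oxidases are main enzymes of the first phase of drug metabolism, and their genes were followed here in 24 RNA-seq libraries of cultured mouse lung adenocarcinoma cells. The genes were taken by symbol (Cyp1 to Cyp4 with a subfamily letter and number, Ces1 to Ces5, and Aox1 to Aox4), which matched 94 of the 41527 genes in either count table. Of these, 27 were kept because they reached 0.5 CPM (counts-per-million of the library total) in at least 4 libraries of a table, and 67 were not. The members were thus chosen by their measured expression level, and being expressed is not a finding about them. The kept genes were 2 of 3 Cyp1, 12 of 44 Cyp2, 1 of 7 Cyp3, 6 of 17 Cyp4, 4 of 19 Ces and 2 of 4 Aox genes. All 27 passed in the table of siRNA samples and 9 of them also in the table of shRNA samples.

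P450s are haem enzymes that insert an oxygen atom into drugs, steroids, retinoids and fatty acids, with electrons passed on by the reductase POR. Families 1 to 3 are best known for foreign compounds, with the aryl hydrocarbon receptor AHR as the inducer of family 1, while several Cyp2c, Cyp2j and Cyp4 enzymes act on arachidonic acid and other fatty acids. Carboxylesterases cleave esters and amides, aldehyde oxidases are molybdenum enzymes that oxidise aldehydes and nitrogen heterocycles, and many genes of these families are most abundant in liver, where HNF4A is one of their activators.

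The cells were cultured primary tumour cells that had been sorted as GFP+ and CD45-. They differ at eIF2α, the initiation factor whose phosphorylated serine starts the integrated stress response: A/A cells carry alanine in place of that serine and S/S cells keep the serine. In the siRNA table, A/A cells received siChchd10 (A/A siChchd10) or a control siRNA (A/A siControl), and S/S cells received the same pair (S/S siChchd10 and S/S siControl). In the shRNA table, S/S cells carried an shRNA against Atf4 (S/S shAtf4) or a scramble shRNA (S/S shControl). ATF4 is a transcription factor translated under the integrated stress response, and CHCHD10 sits inside mitochondria, between their membranes. Each of the 6 groups has 4 libraries, and the labels do not say whether these came from separate cultures, tumours or mice, so p-values measure only the spread between these samples.

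Total counts were 14067290 to 70932804 per library in the shRNA table and 42863650 to 75409451 in the siRNA table. Chchd10 averaged 1.83 ± 0.352 CPM in A/A siChchd10 and 8.93 ± 1.13 CPM in A/A siControl, and 6.30 ± 0.668 CPM in S/S siChchd10 and 42.6 ± 3.84 CPM in S/S siControl (SD, n = 4). Atf4 averaged 271 ± 46.8 CPM in S/S shAtf4 and 679 ± 173 CPM in S/S shControl. Replicate 4 of both shRNA groups stood apart from the other 6 libraries on the first principal component. The summed level of 4 Y-linked genes was 1.46 to 3.56 CPM in S/S shAtf4 and 111 to 135 CPM in S/S shControl, and the shRNA and this difference between the cultures cannot be told apart. In A/A siControl replicate 1, 8 genes abundant in S/S cells and nearly absent from A/A siChchd10 stood at a median of 6.42% of their S/S siControl level, against 0.053% to 0.843% in the other 3 A/A siControl libraries. Without that replicate all 24 A/A siChchd10 calls described below remained, and of the differences between genotypes only that of Cyp3a13 lost its call. General epithelial markers were high everywhere, with a summed level of 3931 to 7661 CPM for 8 genes, and summed leukocyte markers (8 genes) stayed between 2.39 and 5.02 CPM. Summed fibroblast markers (8 genes) reached at most 18.4 CPM and summed endothelial markers (8 genes) at most 3.11 CPM. The club cell P450 gene Cyp2f2, a defining airway product, was not kept and averaged at most 0.0206 CPM in the siRNA groups.

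The genes lie largely in tandem arrays, and the array with the most matching genes among those that hold kept ones is the Cyp2c cluster of chromosome 19. It spans 1180.3 kb and holds 13 matching genes, of which 5 were kept: Cyp2c55, Cyp2c65, Cyp2c67, Cyp2c68 and Cyp2c70. The RefSeq promoter windows (GRCm38.p6, the assembly called mm10 in the submitters' processing notes) of 4 of these 5 genes contain the letters CAAAGTCCA, an HNF4A element. The windows run from 150 bases before to 50 bases after the start. They are shown because no other kept gene with a RefSeq promoter has this element, and because these neighbours gave several of the largest siChchd10 differences. Cyp2c55, the member with the largest rise in A/A cells, has a RefSeq promoter without the element. Promoters of array genes that were not kept were not examined one by one, and a link to the differences was not tested. The element is in capitals, and each sequence is 5′ to 3′ on the strand of its gene.
Cyp2c65, chr19:39060856-39061055, plus strand: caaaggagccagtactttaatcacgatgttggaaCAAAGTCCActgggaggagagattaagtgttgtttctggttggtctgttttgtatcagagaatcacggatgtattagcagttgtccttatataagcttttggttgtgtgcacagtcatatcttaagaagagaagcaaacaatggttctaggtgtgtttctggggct
Cyp2c67, chr19:39648993-39649192, minus strand: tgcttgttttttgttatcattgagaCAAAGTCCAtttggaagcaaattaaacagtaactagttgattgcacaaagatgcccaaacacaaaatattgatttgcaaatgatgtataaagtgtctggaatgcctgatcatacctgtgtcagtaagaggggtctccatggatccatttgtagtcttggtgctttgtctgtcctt
Cyp2c68, chr19:39741052-39741251, minus strand: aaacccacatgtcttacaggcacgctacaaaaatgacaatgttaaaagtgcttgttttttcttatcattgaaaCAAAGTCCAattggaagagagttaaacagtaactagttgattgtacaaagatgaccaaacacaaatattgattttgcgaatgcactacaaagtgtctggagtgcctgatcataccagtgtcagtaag
Cyp2c70, chr19:40187237-40187436, minus strand: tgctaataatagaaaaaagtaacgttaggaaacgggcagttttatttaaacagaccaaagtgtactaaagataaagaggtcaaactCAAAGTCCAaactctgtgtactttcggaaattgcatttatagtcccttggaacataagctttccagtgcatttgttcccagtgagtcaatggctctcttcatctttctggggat

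The first base of the element lies at position -116 from the start in Cyp2c65, -125 in Cyp2c67, -77 in Cyp2c68 and -64 in Cyp2c70. Searched on both strands from 250 bases before to 50 bases after the start, it was found in 4 of the 22 kept genes with a RefSeq promoter and in 0.475% of 32851 promoters. These genes are copies of each other, so the matches are not independent: in the 20 bases on either side of the element, Cyp2c67 and Cyp2c68 shared 34 of 40 bases, whereas Cyp2c65 and Cyp2c70 shared 7 of 40. The core of the AHR element, GCGTG, was found in 7 of 22 kept genes (Aox1, Aox3, Cyp1a1, Cyp1b1, Cyp2c68, Cyp4f16 and Cyp4v3) and in 32.4% of all promoters. The antioxidant element TGACNNNGC was found in 2 (Cyp2c65 and Cyp2j6) against 12.4% of all promoters. The letters TGATGNAAN, a CEBP-ATF element, and GTTAATNAT, an HNF1 element, were found in none of the 22, against 3.95% and 0.801% of all promoters. A match is only these letters and was not tied to binding in these cells.

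Within a library, the 27 genes covered a wide range of levels (heat map of the 27 genes). Per kilobase of annotated exon, Cyp2c65 was the most abundant member in A/A siChchd10, at 68.7 CPM per kb, followed by Cyp2c68 at 32.0, Cyp2s1 at 23.9 and Cyp3a13 at 17.97 CPM per kb. In A/A siControl the order began with Cyp2s1 at 43.3, Cyp2c65 at 27.8, Cyp1a1 at 17.6 and Cyp1b1 at 15.9 CPM per kb. In S/S siChchd10 and S/S siControl Cyp2s1 again led, at 15.5 and 9.95 CPM per kb, and Cyp2c65 reached only 1.62 and 0.431 CPM per kb. In S/S shAtf4 the order began with Cyp4f16 at 5.94, Cyp1b1 at 4.49 and Cyp1a1 at 4.21 CPM per kb, and in S/S shControl with Cyp1a1 at 6.22, Cyp4f16 at 6.10 and Aox1 at 4.73 CPM per kb. Of the 27 genes, 9 were kept through A/A libraries alone (Aox3, Ces1b, Ces1c, Ces1d, Ces2a, Cyp2c55, Cyp2c67, Cyp2d22 and Cyp2t4) and Cyp2j6 through S/S libraries alone. A gene kept through the group where it is high had to differ there, so the counts of members below are descriptions. Just inside the threshold, the fourth highest library of Cyp2c67 stood at 0.589 CPM of its library total and that of Ces2a at 0.545 CPM. Just outside it were Cyp4f40 at 0.398 CPM, Ces1a at 0.379 CPM and Aox2 at 0.358 CPM.

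**Figure D1:**
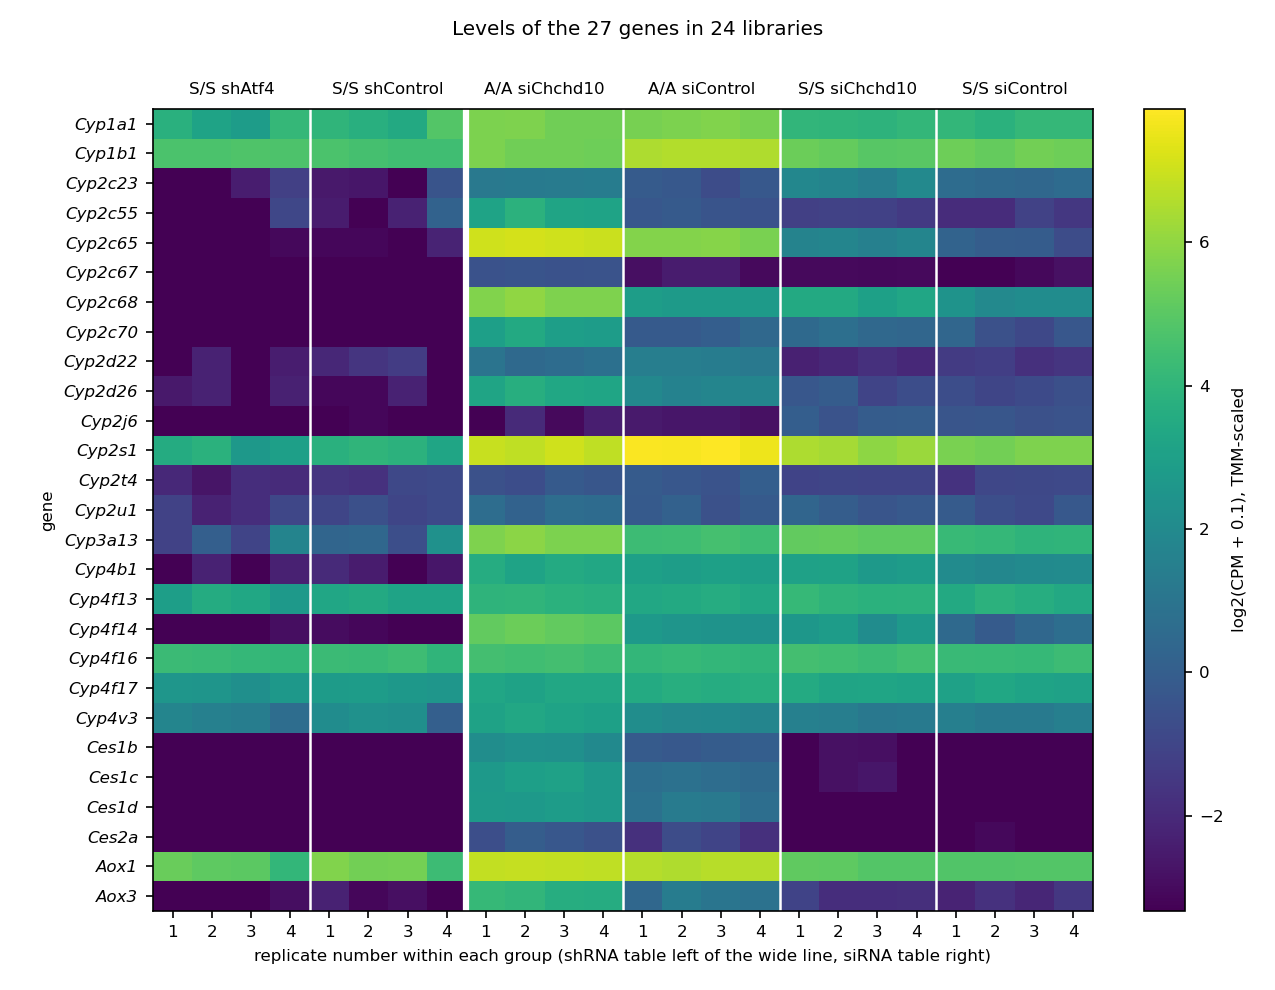
Heat map of TMM-scaled CPM, as log2(CPM + 0.1), for the 27 kept genes (rows, by family) in 24 libraries (columns, by group and replicate number). The Ces genes are at or near 0 in every S/S library, and most Cyp2c genes are brightest in A/A siChchd10. The shRNA and siRNA tables were scaled separately.

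Among the kept genes, Chchd10 siRNA in A/A cells came with higher levels of every Cyp2c gene, all 4 carboxylesterase genes and both aldehyde oxidase genes. It came with lower levels of Cyp1b1, Cyp2s1, Cyp2d22 and Cyp4f17. Of the 27 members, 20 rose and 4 fell in A/A siChchd10 against A/A siControl, and 15 of the rises were at least 2-fold, a size not counted over all genes. The 15 include Cyp2c67, which was kept through A/A siChchd10 alone, and Ces2a, which reached 0.5 CPM in only 1 A/A siControl library. Among all 18138 genes tested, 53.7% passed the test (26.5% higher and 27.2% lower), so passing was common, while rises made up 74.1% of the members. The median log2 fold change of the members was 1.21, against -0.012 over all genes tested. All 24 members that passed had separate groups, the 4 libraries of one group lying above the 4 of the other. How often this held over all genes tested was not counted. In bulk RNA, fewer cells that express a gene and less RNA per cell cannot be told apart.

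The Cyp2c genes, many of which encode arachidonic acid epoxygenases, gave the largest differences. Cyp2c55 (chromosome 19, 39007019 to 39042693, GENCODE vM21 on GRCm38) measured 8.86, 14.5, 9.02 and 8.76 CPM in A/A siChchd10 replicates 1 to 4, against 0.719, 0.791, 0.654 and 0.600 CPM in A/A siControl. Its log2 fold change was 3.89 (SE 0.18, adjusted p = 4.54e-16), with SE the standard error and p from edgeR's quasi-likelihood test, adjusted by Benjamini-Hochberg over all genes tested. All 4 A/A siChchd10 libraries lay far above the controls, and replicate 2 lay above the other 3. Cyp2c70, which in mice makes the bile acids called muricholic acids, measured 7.92, 10.9, 7.66 and 7.16 CPM in A/A siChchd10, against 0.794, 0.810, 0.899 and 1.29 CPM in A/A siControl (log2 fold change 3.15, SE 0.19, adjusted p = 8.25e-13). The groups did not overlap. Cyp2c68 measured 53.2, 63.5, 52.4 and 51.4 CPM in A/A siChchd10, against 7.47, 6.74, 6.68 and 6.75 CPM in A/A siControl (log2 fold change 2.99, SE 0.09, adjusted p = 4.38e-17). Here too every A/A siChchd10 library was several times above every control. Cyp2c65, the most abundant of the array, rose by 1.303 (log2 scale, SE 0.06, adjusted p = 1.37e-16), with 132, 142, 132 and 123 CPM in A/A siChchd10 against 54.6, 54.1, 56.9 and 49.0 CPM in A/A siControl. Cyp2c67 stayed low, at 0.596 to 0.640 CPM in A/A siChchd10 against 0.0214 to 0.0817 CPM in A/A siControl, and was kept through A/A siChchd10 alone, so the choice of members partly fixed this difference, and no test of it is given. Cyp2c23, which lies outside the array and encodes a renal epoxygenase in the rat, averaged 2.35 ± 0.131 CPM in A/A siChchd10 and 0.711 ± 0.139 CPM in A/A siControl (log2 fold change 1.72, SE 0.16, adjusted p = 4.13e-10).

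Of 50-base stretches of annotated transcript, 52.8% in Cyp2c67 and 43.3% in Cyp2c68 also occur in another gene, most often Cyp2c40, and 20.6% in Cyp2c65 occur elsewhere, mostly in Cyp2c66. How the authors counted such reads is not given in the sources used here, and the split of counts among these copies is uncertain. Cyp2c40 averaged 0.0916 CPM in A/A siChchd10 and had no count in A/A siControl, and Cyp2c66 averaged 0.0334 CPM in A/A siChchd10 and 0.0357 CPM in A/A siControl. Cyp2c55 shared 0.514% and Cyp2c70 none of these stretches with another gene.

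The array was not raised throughout (plot of the Cyp2c cluster). Of the 11 array genes in the siRNA table, Cyp2c66, Cyp2c29, Cyp2c38, Cyp2c39, Cyp2c40 and Cyp2c69 averaged under 0.1 CPM in all 4 siRNA groups, although they lie between Cyp2c65 and Cyp2c70. Cyp2c39 had no count in any of these groups. The highest level among the 6 was that of Cyp2c40 in A/A siChchd10.

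**Figure D2:**
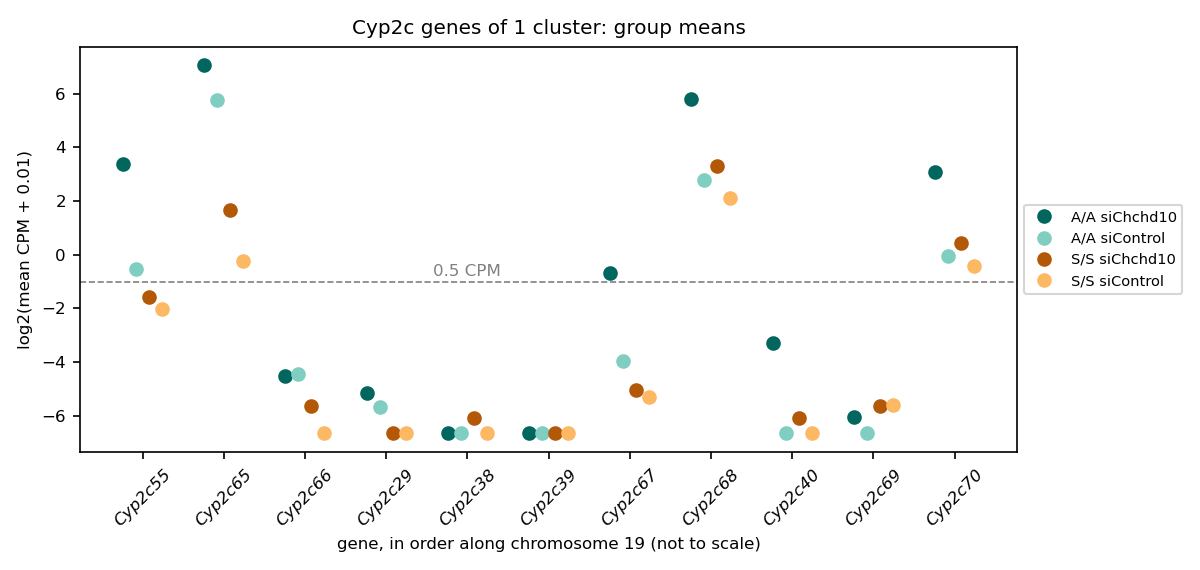
Mean TMM-scaled CPM of 11 Cyp2c genes of the chromosome 19 cluster, as log2(mean CPM + 0.01), in gene order along the chromosome, for the 4 siRNA groups (n = 4 each). Cyp2c37 and Cyp2c50, 2 of the 13 genes, are not in the siRNA table. Cyp2c55, Cyp2c65, Cyp2c68 and Cyp2c70 stand above 0.5 CPM (dashed line) in both A/A groups, and the 6 genes under 0.1 CPM lie between them.

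In the Cyp4 family, whose enzymes hydroxylate the far end of fatty acids and leukotrienes, Cyp4f14 measured 35.4, 41.1, 36.0 and 32.9 CPM in A/A siChchd10, against 6.53, 5.55, 5.21 and 5.14 CPM in A/A siControl. It rose by 2.69 (log2 scale, SE 0.12, adjusted p = 1.40e-12) and its groups were far apart. Its neighbours on chromosome 17 moved less: Cyp4f13 rose by 0.41 (log2 scale, SE 0.09, adjusted p = 0.000312), Cyp4f16 rose by 0.37 (log2 scale, SE 0.06, adjusted p = 4.28e-06) and Cyp4f17 fell by 0.32 (log2 scale, SE 0.08, adjusted p = 0.00145). Cyp4f17 measured 9.68, 8.63, 10.4 and 10.3 CPM in A/A siChchd10, against 11.4, 12.7, 11.99 and 12.7 CPM in A/A siControl. Cyp4f16 measured 22.6, 21.4, 22.9 and 20.4 CPM in A/A siChchd10, against 16.6, 18.1, 16.9 and 15.98 CPM in A/A siControl. The 4 kept genes of this array of 8 thus moved in both directions. Cyp4f40, the highest of the 4 not kept, averaged 0.493 CPM in A/A siChchd10 and 0.213 CPM in A/A siControl. Of 50-base stretches of Cyp4f16, 17.4% occur in another gene, mostly Cyp4f37, which averaged at most 0.00532 CPM in the siRNA groups. Cyp4v3, the mouse counterpart of the human fatty acid hydroxylase CYP4V2, averaged 8.91 ± 1.01 CPM in A/A siChchd10 and 3.84 ± 0.450 CPM in A/A siControl (log2 fold change 1.21, SE 0.11, adjusted p = 1.58e-10). Cyp4b1, a lung P450 that activates plant furans, averaged 10.7 ± 1.35 CPM in A/A siChchd10 and 7.77 ± 0.372 CPM in A/A siControl (log2 fold change 0.45, SE 0.09, adjusted p = 0.000198).

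Cyp3a13, a gut and liver member of the main drug-metabolising family, measured 51.4, 60.5, 50.1 and 50.4 CPM in A/A siChchd10, against 19.99, 20.8, 23.5 and 21.1 CPM in A/A siControl, a log2 fold change of 1.32 (SE 0.06, adjusted p = 1.73e-15). Cyp2d26 averaged 10.3 ± 1.62 CPM in A/A siChchd10 and 3.31 ± 0.266 CPM in A/A siControl (log2 fold change 1.63, SE 0.12, adjusted p = 6.27e-12). Cyp2d22, from the other end of the same chromosome 15 array, went the opposite way. It measured 1.88, 1.2997, 1.47 and 1.66 CPM in A/A siChchd10, against 2.61, 2.67, 2.49 and 2.21 CPM in A/A siControl, and fell by 0.66 (log2 scale, SE 0.15, adjusted p = 0.000519). The low-level fatty acid hydroxylase gene Cyp2u1 rose by 0.77 (log2 scale, SE 0.21, adjusted p = 0.00281).

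The carboxylesterases with kept genes were Ces1b, Ces1c and Ces1d, from 1 array of 9 genes on chromosome 8, and Ces2a, from another array on that chromosome. Ces1c, which encodes a secreted esterase of rodent plasma, measured 6.45, 7.78, 8.24 and 6.53 CPM in A/A siChchd10, against 1.55, 1.68, 1.49 and 1.33 CPM in A/A siControl (log2 fold change 2.25, SE 0.15, adjusted p = 1.89e-12). Ces1d, which encodes a triacylglycerol hydrolase, measured 6.66, 6.498, 7.07 and 6.32 CPM in A/A siChchd10, against 1.68, 2.41, 2.23 and 1.56 CPM in A/A siControl (log2 fold change 1.75, SE 0.14, adjusted p = 3.81e-10). In both genes the 2 groups were well apart. Ces1b rose by 2.42 (log2 scale, SE 0.17, adjusted p = 5.89e-12). Ces2a rose by 1.07 (log2 scale, SE 0.32), at only 0.551 to 0.873 CPM in A/A siChchd10 and 0.189 to 0.514 CPM in A/A siControl. It reached 0.5 CPM of the library total in 4 A/A siChchd10 libraries and 1 A/A siControl library. The choice of members thus partly fixed this rise, and no test of it is given. Of 50-base stretches, 17.3% in Ces2a, 13.0% in Ces1c and 11.6% in Ces1b occur in another gene.

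Of the aldehyde oxidases, Aox3 measured 17.6, 16.4, 12.2 and 11.98 CPM in A/A siChchd10, against 1.25, 2.51, 1.94 and 1.74 CPM in A/A siControl (log2 fold change 2.97, SE 0.17, adjusted p = 1.64e-12). Aox1, its neighbour on chromosome 1 and the more abundant of the pair, measured 114, 117, 113 and 109.7 CPM in A/A siChchd10, against 99.0, 92.99, 99.5 and 97.8 CPM in A/A siControl. It rose by only 0.22 (log2 scale, SE 0.05, adjusted p = 0.000192). Both genes had separate groups, and the other 2 genes of the array, Aox4 and Aox2, averaged at most 0.291 CPM in the A/A groups.

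The falls were led by Cyp1b1 and Cyp2s1. Cyp1b1, an AHR target that oxidises aromatic hydrocarbons and oestrogens, measured 50.5, 43.4, 43.3 and 41.2 CPM in A/A siChchd10, against 90.1, 94.8, 93.7 and 91.7 CPM in A/A siControl, and fell by 1.06 (log2 scale, SE 0.08, adjusted p = 6.40e-10). Cyp2s1, a P450 of epithelia, measured 122, 110.1, 131 and 109 CPM in A/A siChchd10, against 219, 215, 232 and 189 CPM in A/A siControl, and fell by 0.86 (log2 scale, SE 0.10, adjusted p = 7.57e-06). In both genes each A/A siChchd10 library was below each control. Cyp1a1, another AHR target, did not pass, with 47.2 ± 4.15 CPM in A/A siChchd10 and 49.2 ± 3.19 CPM in A/A siControl (log2 fold change -0.06, SE 0.06, adjusted p = 0.465). Cyp2j6 and Cyp2t4 did not pass either, with log2 fold changes of 0.23 and -0.24 at levels under 1 CPM.

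Levels of genes that mark other cell types moved with these differences. The summed level of 12 hepatocyte markers was 1773 to 1986 CPM in A/A siChchd10 and 439.6 to 520.03 CPM in A/A siControl. Among them the clotting factor gene Fga rose by 3.94 (log2 scale, SE 0.20, adjusted p = 7.20e-11) and the apolipoprotein gene Apoa1 by 2.75 (log2 scale, SE 0.11, adjusted p = 5.99e-11), and 6 of 8 tested rose and none fell. Serpina1a and Tat had at most 3 counts in both A/A groups, and Ahsg and Pck1 in A/A siControl. The summed level of 10 alveolar type 2 markers was 1447 to 1704 CPM in A/A siChchd10 and 553 to 616 CPM in A/A siControl (7 of 8 tested rose), that of 11 gut markers 539 to 571 CPM and 272 to 291 CPM (7 of 9 rose), and that of 8 club cell markers 20.02 to 23.1 CPM and 4.27 to 5.66 CPM (3 of 5 rose and 2 fell). Bpifa1 and Cldn10 of the club cell list had at most 3 counts in both groups. The part of these cell types in the P450, carboxylesterase and aldehyde oxidase results was not tested.

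**Figure D3:**
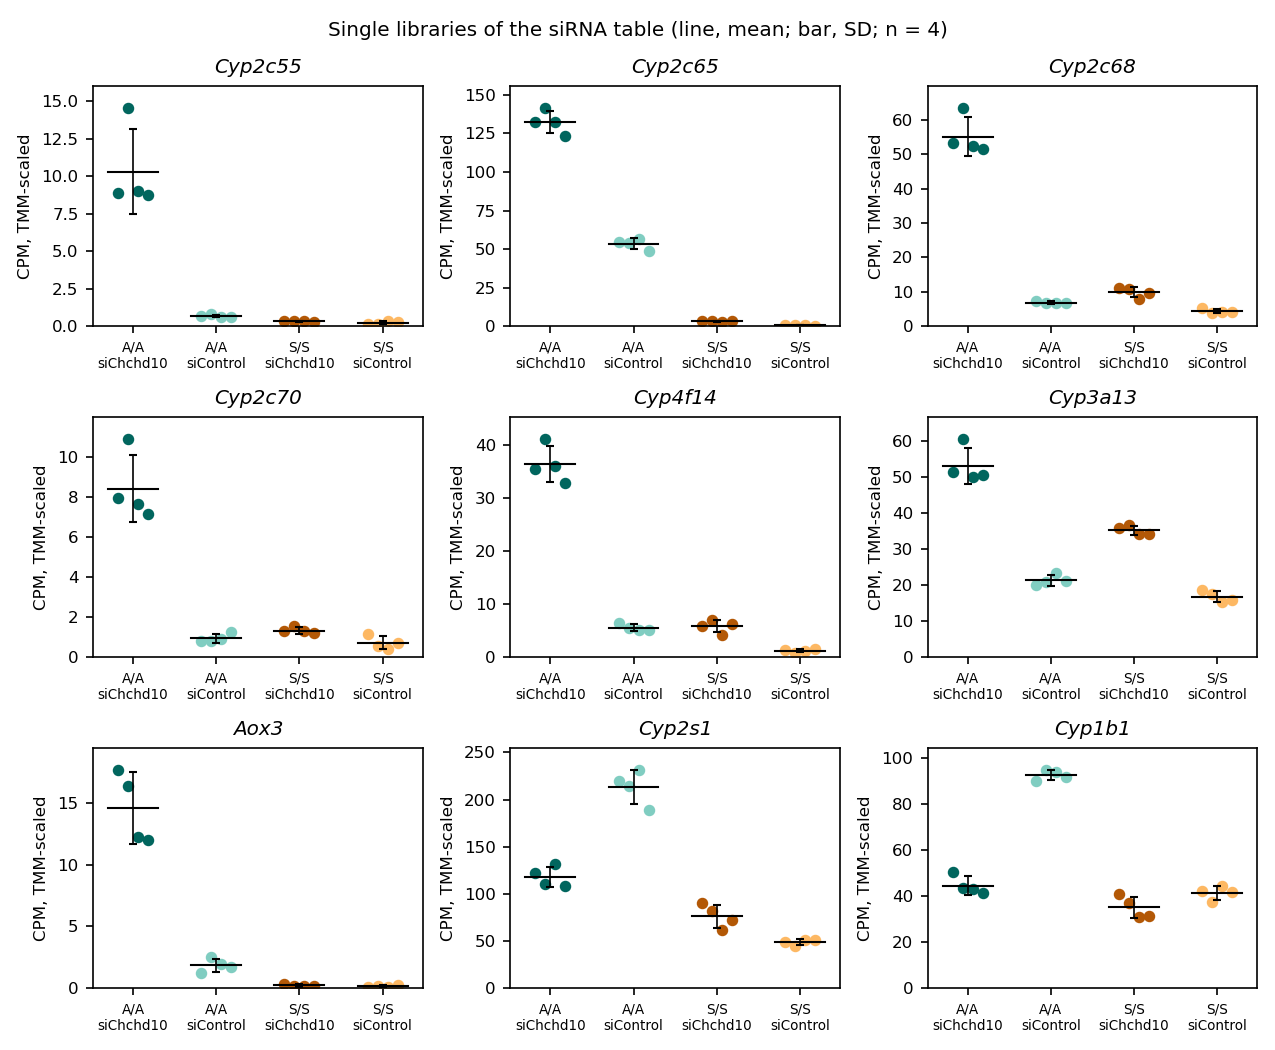
TMM-scaled CPM of 9 members in each library of the 4 siRNA groups (points), with the mean (line) and SD (bar) of 4 libraries. The first 7 panels are highest in A/A siChchd10, while Cyp2s1 and Cyp1b1 are highest in A/A siControl.

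The same siRNA in S/S cells came with higher levels of Cyp4f14, of 4 Cyp2c genes, Cyp3a13 and Cyp2s1 and with carboxylesterase levels at or near 0 in both groups. Of the 27, 11 rose and 1 fell in S/S siChchd10 against S/S siControl, and 5 rose at least 2-fold, a size not counted over all genes. Over all 18138 genes tested, 28.0% passed (15.0% higher and 13.0% lower), and the median log2 fold change was 0.35 for the members and 0.00038 for all genes. Of the 12 members that passed, 9 had separate groups, which was not counted over all genes here either. Of the members that passed, Cyp4f14 had the largest rise and measured 5.98, 7.10, 4.29 and 6.24 CPM in S/S siChchd10, against 1.32, 0.815, 1.22 and 1.54 CPM in S/S siControl (log2 fold change 2.28, SE 0.18, adjusted p = 9.64e-09). Cyp2c65 measured 3.15, 3.27, 2.83 and 3.28 CPM in S/S siChchd10, against 1.09, 0.870, 0.855 and 0.512 CPM in S/S siControl (log2 fold change 1.91, SE 0.13, adjusted p = 1.40e-11). Both genes stood clear of their controls in all 4 libraries. Cyp2c23 measured 3.52, 3.21, 2.65 and 3.78 CPM in S/S siChchd10, against 1.44, 1.31, 1.235 and 1.41 CPM in S/S siControl (log2 fold change 1.29, SE 0.14, adjusted p = 4.48e-08). Cyp2c68 measured 11.02, 10.97, 7.99 and 9.68 CPM in S/S siChchd10, against 5.20, 3.76, 4.24 and 4.25 CPM in S/S siControl (log2 fold change 1.19, SE 0.11, adjusted p = 1.05e-08). These groups did not overlap either.

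Cyp3a13 measured 35.7, 36.6, 34.2 and 34.2 CPM in S/S siChchd10, against 18.6, 17.6, 15.3 and 15.98 CPM in S/S siControl, and rose by 1.06 (log2 scale, SE 0.07, adjusted p = 9.98e-13). Cyp4b1 rose by 0.96 (log2 scale, SE 0.11, adjusted p = 3.74e-08), Cyp2c70 by 0.91 (log2 scale, SE 0.24, adjusted p = 0.00516) and Cyp4f13 by 0.35 (log2 scale, SE 0.09, adjusted p = 0.00298). Cyp2s1, which fell in A/A cells, rose by 0.64 (log2 scale, SE 0.11, adjusted p = 0.000477) in S/S cells, with 90.2, 81.5, 62.1 and 72.3 CPM in S/S siChchd10 against 49.0, 44.4, 51.7 and 51.4 CPM in S/S siControl. Every S/S siChchd10 library of Cyp2s1 lay above every S/S siControl library. Cyp1b1 fell by 0.24 (log2 scale, SE 0.08, adjusted p = 0.028), with overlapping values of 40.9, 36.9, 31.1 and 31.5 CPM in S/S siChchd10 and 42.0, 37.3, 44.6 and 41.8 CPM in S/S siControl.

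Aox1 rose by 0.16 (log2 scale, SE 0.05, adjusted p = 0.0235), with 34.6, 34.0, 29.0 and 29.1 CPM in S/S siChchd10 and 27.9, 28.4, 28.8 and 28.7 CPM in S/S siControl. Cyp4f16 rose by 0.18 (log2 scale, SE 0.06, adjusted p = 0.0186), with 22.8, 21.5, 19.8 and 22.1 CPM in S/S siChchd10 and 19.02, 18.6, 18.03 and 20.3 CPM in S/S siControl. These calls lie close to the threshold. That of Aox1 was lost without S/S siChchd10 replicate 1 or 2 or S/S siControl replicate 1 (log2 fold change 0.11 to 0.15, adjusted p = 0.0604 to 0.129), and with the 8 libraries of the comparison alone (adjusted p = 0.0667). That of Cyp1b1 was lost without S/S siChchd10 replicate 3 or 4 or S/S siControl replicate 1, 3 or 4 (-0.23 to -0.19, adjusted p = 0.0663 to 0.0939), and that of Cyp4f16 without S/S siChchd10 replicate 1 or S/S siControl replicate 3 (0.15 to 0.16, adjusted p = 0.0618 to 0.069). The carboxylesterases stayed at or near 0: Ces1d had no count in either group, Ces1b and Ces1c had 4 and 5 counts over the S/S siChchd10 libraries (at most 0.0399 and 0.0585 CPM) and none in S/S siControl, and Ces2a had none in S/S siChchd10 and 1 in S/S siControl. None of the 4 passed, with adjusted p = 0.0626 for Ces1c and 0.0758 for Ces1b. Aox3 did not pass at 0.175 to 0.375 CPM in S/S siChchd10 and 0.118 to 0.256 CPM in S/S siControl. Beside these results, the summed hepatocyte markers were 179 to 231 CPM in S/S siChchd10 and 108 to 143 CPM in S/S siControl (7 of 8 rose), and the alveolar type 2 markers 186 to 219 CPM and 177 to 190.02 CPM (3 of 8 rose and 1 fell). The gut markers stood at 340 to 364 CPM in S/S siChchd10 and 147 to 174 CPM in S/S siControl (6 of 9 rose and 1 fell), and the club cell markers at 31.6 to 43.4 CPM and 17.7 to 23.7 CPM (2 of 5 rose). Apoc3, Pck1, Bpifa1 and Cldn10 of these lists had at most 3 counts in both groups. Their part in the result was not tested.

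**Figure D4:**
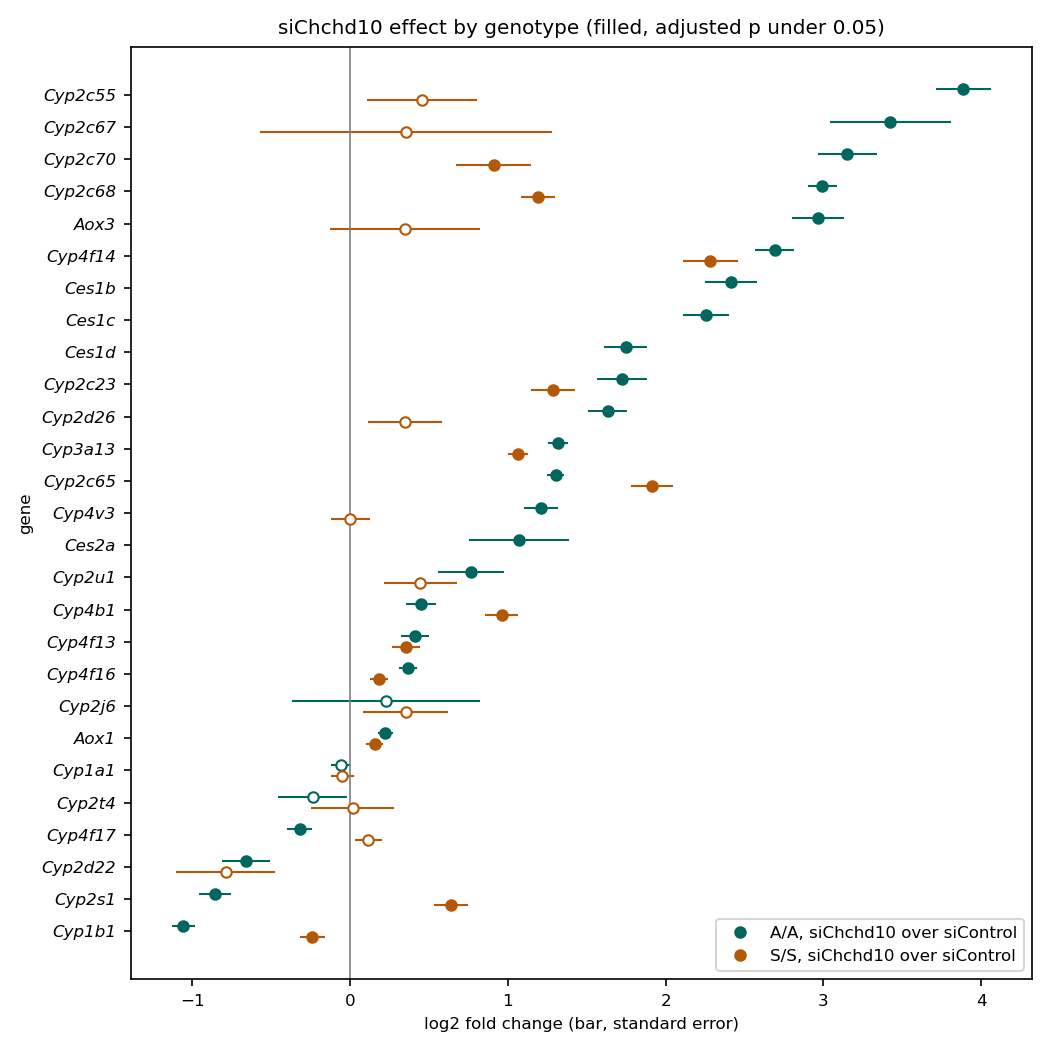
Log2 fold change of siChchd10 over siControl (points, with SE bars) for each member in A/A cells (green) and S/S cells (brown). Filled points have an adjusted p under 0.05, and the S/S values of the 4 Ces genes are left out because a group had no count. Cyp2c55 reached 3.89 in A/A cells, and Cyp2s1 lies on opposite sides of 0 in the 2 genotypes.

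Whether the siChchd10 effect differed between genotypes was tested directly, as the effect in A/A minus the effect in S/S. The difference passed for 12 of 27 members, 7 higher and 5 lower, against 35.6% of all genes tested (16.7% higher and 18.9% lower). The median over members was 0.19, against -0.015 over all genes. On the log2 scale it was largest for Cyp2c55, with 3.43 (SE 0.43, adjusted p = 5.82e-07). In S/S cells Cyp2c55 measured 0.333, 0.359, 0.351 and 0.271 CPM in S/S siChchd10 and 0.165, 0.167, 0.361 and 0.256 CPM in S/S siControl, and these groups overlapped. Aox3 followed with 2.62 (SE 0.54, adjusted p = 0.000666), and Cyp2c70 with 2.24 (SE 0.32, adjusted p = 6.00e-06). Cyp2c55 and Aox3 were kept through A/A libraries alone and averaged 0.178 to 0.329 CPM in the S/S siRNA groups. The choice of members thus favoured such differences for these genes. In S/S cells Aox3 measured 0.375, 0.179, 0.175 and 0.188 CPM in S/S siChchd10 and 0.118, 0.204, 0.133 and 0.256 CPM in S/S siControl, where the groups overlapped. Cyp2c70 measured 1.29, 1.58, 1.29 and 1.19 CPM in S/S siChchd10 and 1.18, 0.574, 0.437 and 0.725 CPM in S/S siControl, where every S/S siChchd10 library was above every S/S siControl library. By log2 differences given in parentheses, Cyp2c68 (1.80), Cyp2d26 (1.29), Cyp4v3 (1.21) and Cyp3a13 (0.25) also had larger effects in A/A cells. The call for Cyp3a13 was lost without A/A siChchd10 replicate 2, A/A siControl replicate 1, S/S siChchd10 replicate 3 or S/S siControl replicate 1 (adjusted p = 0.0535 to 0.0952).

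The 5 lower differences were of several kinds. Cyp2s1 had -1.496 (SE 0.15, adjusted p = 3.80e-06), since it rose in S/S cells and fell in A/A cells. Cyp1b1 had -0.82 (SE 0.11, adjusted p = 1.03e-05), since it fell more in A/A cells than in S/S cells. Cyp2c65 had -0.61 (SE 0.15, adjusted p = 0.00234) and Cyp4b1 -0.51 (SE 0.14, adjusted p = 0.00583), since both rose in each genotype and by a smaller fold in A/A cells. Cyp4f17 had -0.44 (SE 0.12, adjusted p = 0.00425), and in S/S cells its own change did not pass (log2 fold change 0.12, SE 0.08, adjusted p = 0.337).

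Aox1, Cyp2c23, Cyp4f13, Cyp4f14 and Cyp4f16 rose in both genotypes without a difference past the threshold. For Cyp4f14 that difference was 0.41 (SE 0.23, adjusted p = 0.181) and for Cyp4f13 it was 0.06 (SE 0.12, adjusted p = 0.767). For Ces1d no difference could be estimated because S/S cells had no count, and for Ces1b, Ces1c, Ces2a and Cyp2c67 it rested on 5 counts or fewer in every S/S group.

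The genotypes themselves were compared in the cells that received the control siRNA, and most members were higher in A/A. The groups follow the sample titles, which name A/A or S/S cells, while the genotype field of the labels reads WT for both. Of the 27, 21 were higher and 3 lower in A/A siControl than in S/S siControl, and 15 were at least 2-fold higher, a size not counted over all genes. The 15 include genes kept through A/A libraries alone (Aox3, Cyp2c55, Cyp2c67, Cyp2d22 and the kept Ces genes). Among all 18138 genes tested 70.2% differed (35.6% higher and 34.7% lower), so most genes of any kind passed here. The median log2 fold change of the members was 1.52, against 0.0089 over all genes. The summed level of the 4 Y-linked genes was 344 to 380 CPM in A/A siControl and 119 to 144 CPM in S/S siControl. Genotype, and whatever else differs between the A/A and S/S cultures, cannot be told apart. A/A siControl is also the control of the A/A siChchd10 comparison, so the 2 sets of values are not independent.

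All 4 carboxylesterases were higher in A/A siControl, and all 4 were kept through A/A libraries alone. Ces1d measured 1.68, 2.41, 2.23 and 1.56 CPM in A/A siControl and had no count in S/S siControl, which is at least 129-fold higher against a floor of 3 counts over the S/S group. Ces1c measured 1.55, 1.68, 1.49 and 1.33 CPM in A/A siControl, again with no count in S/S siControl, at least 99-fold higher, and Ces1b was at least 54.4-fold higher. Ces2a had a single count in S/S siControl, which gives a ratio of 62.9 with an exact 95% counting interval of 10.9 to 2525.

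Cyp2c65 measured 54.6, 54.1, 56.9 and 49.0 CPM in A/A siControl, against 1.09, 0.870, 0.855 and 0.512 CPM in S/S siControl, and was higher by 6.01 (log2 scale, SE 0.09, adjusted p = 1.20e-27). No other P450 differed as much. Aox3 was higher by 3.36 (log2 scale, SE 0.31), with 1.25, 2.51, 1.94 and 1.74 CPM in A/A siControl against 0.118, 0.204, 0.133 and 0.256 CPM in S/S siControl. Cyp2d22 was higher by 3.28 (log2 scale, SE 0.20). Both were kept through A/A libraries alone, so the choice of members partly fixed these differences, and no test of them is given. Cyp2d26 was higher by 2.76 (log2 scale, SE 0.18, adjusted p = 5.26e-14), Cyp4f14 by 2.21 (log2 scale, SE 0.18, adjusted p = 1.26e-09) and Cyp2s1 by 2.12 (log2 scale, SE 0.11, adjusted p = 2.24e-10). Aox1 averaged 97.3 ± 2.97 CPM in A/A siControl and 28.4 ± 0.411 CPM in S/S siControl (log2 fold change 1.77, SE 0.05, adjusted p = 2.57e-22). The AHR targets of family 1 were also higher, Cyp1a1 with 49.2 ± 3.19 CPM in A/A siControl and 16.4 ± 1.73 CPM in S/S siControl (log2 fold change 1.59, SE 0.07, adjusted p = 6.12e-17), and Cyp1b1 with 92.6 ± 2.08 CPM and 41.4 ± 3.02 CPM (log2 fold change 1.16, SE 0.08, adjusted p = 4.41e-11).

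Also higher were, on the log2 scale, Cyp2c55 (1.52), Cyp2t4 (0.99), Cyp4b1 (0.99), Cyp2c68 (0.67), Cyp4v3 (0.63), Cyp4f17 (0.46) and Cyp3a13 (0.34). Of these, Cyp2c55 and Cyp2t4 were kept through A/A libraries alone, so the choice of members partly fixed their differences. Cyp2t4 overlaps Egln2 on the other strand, and no source used here gives the strand setting of the counts. Cyp2c67 passed narrowly at an average under 0.1 CPM in both groups, and its ratio of 3.61 had an exact 95% counting interval of 0.953 to 20.1. Its call was lost without A/A siControl replicate 2 or 3 or S/S siControl replicate 1, 2 or 3 (adjusted p = 0.0685 to 0.145), with DESeq2 size factors (0.0514), without the filter on low counts (0.12), with DESeq2 as the test (0.12) and with the replicate number as a block (0.0637).

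The members that were lower in A/A were Cyp2j6, Cyp2c23 and Cyp4f16. Cyp2j6, which encodes a relative of the human epoxygenase CYP2J2, averaged 0.0598 ± 0.0134 CPM in A/A siControl and 0.643 ± 0.05004 CPM in S/S siControl (log2 fold change -3.37, SE 0.41). It was kept through S/S libraries alone, so the choice of members partly fixed this difference, and no test of it is given. Cyp2c23 measured 0.832, 0.751, 0.511 and 0.750 CPM in A/A siControl, against 1.44, 1.31, 1.235 and 1.41 CPM in S/S siControl, and was lower by 0.92 (log2 scale, SE 0.17, adjusted p = 2.67e-05), with no overlap. Cyp4f16 measured 16.6, 18.1, 16.9 and 15.98 CPM in A/A siControl, against 19.02, 18.6, 18.03 and 20.3 CPM in S/S siControl, an overlapping difference of -0.17 (SE 0.06, adjusted p = 0.0118) whose call was lost without S/S siControl replicate 4 (adjusted p = 0.0559). In the same comparison the summed hepatocyte markers were 439.6 to 520.03 CPM in A/A siControl and 108 to 143 CPM in S/S siControl, with 4 of 8 higher and 4 lower. The alveolar type 2 markers were 553 to 616 CPM in A/A siControl and 177 to 190.02 CPM in S/S siControl (5 of 8 higher and 2 lower), the gut markers 272 to 291 CPM and 147 to 174 CPM (6 of 9 higher and 3 lower), and the club cell markers 4.27 to 5.66 CPM and 17.7 to 23.7 CPM (4 of 5 higher and 1 lower). Their part in the genotype differences was not tested.

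Knockdown of Atf4 in S/S cells was examined for the 10 members with enough counts in the shRNA table. None passed the test: 0 of 10 had an adjusted p under 0.05, or an unadjusted p under 0.05, by the edgeR quasi-likelihood test, and DESeq2 also called 0 of the 10. Over all 14697 genes tested 0.538% passed (0.150% higher and 0.388% lower). The median log2 fold change of the 10 was -0.44, against -0.0049 over all genes, and 9 of the 10 values were negative. The libraries of the 2 groups overlapped for each of the 10 genes (plot of the shRNA pairs), and overlap was not counted over all genes.

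Libraries of the same replicate number deviated together in the shRNA table, most clearly replicate 4, while different numbers among replicates 1 to 3 also did so in part. The fit with the number as a block is given where it changed a call, and it did for Aox1 and Cyp1a1. With the block 20.2% of all 14697 genes tested passed (10.1% higher and 10.1% lower), so 2 of 10 members is no more than that share. Aox1 measured 39.3, 33.3, 32.4 and 16.8 CPM in S/S shAtf4 replicates 1 to 4, against 53.4, 44.2, 46.4 and 20.3 CPM in S/S shControl, a log2 fold change of -0.44 (SE 0.33, adjusted p = 0.709). In all 4 numbered pairs the S/S shAtf4 library was the lower one, and with the block Aox1 fell by 0.41 (adjusted p = 0.00088). Cyp1a1 measured 13.7, 8.73, 7.05 and 17.4 CPM in S/S shAtf4, against 16.02, 13.3, 10.8 and 29.2 CPM in S/S shControl (log2 fold change -0.55, SE 0.37, adjusted p = 0.669). It too was lower in every pair, and with the block fell by 0.55 (adjusted p = 0.00191). Without replicate 4 in both groups, Aox1 fell by 0.46 (adjusted p = 0.0188) and Cyp4v3 fell by 0.68 (adjusted p = 0.0477). In that run 1726 of all 14726 genes tested passed, so passing was far more common than in the main fit.

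The other members passed neither with the block nor without it, although Cyp2s1, Cyp2u1 and Cyp3a13 were also lower in S/S shAtf4 in all 4 numbered pairs (adjusted p = 0.0605, 0.27 and 0.102 with the block). How many of all genes tested were lower in all 4 pairs was not counted. Cyp1b1 measured 25.4, 25.6, 27.2 and 26.9 CPM in S/S shAtf4, against 25.4, 23.7, 21.7 and 21.3 CPM in S/S shControl (log2 fold change 0.19, SE 0.10, adjusted p = 0.576), the only positive value among the 10. Cyp2u1 measured 0.356, 0.113, 0.172 and 0.419 CPM in S/S shAtf4, against 0.399, 0.560, 0.403 and 0.467 CPM in S/S shControl (log2 fold change -0.70, SE 0.41, adjusted p = 0.619). These 2 genes had the smallest unadjusted p-values of the 10, with overlapping groups. Cyp2s1 measured 11.5, 13.8, 6.10 and 7.89 CPM in S/S shAtf4, against 13.5, 15.8, 14.5 and 9.35 CPM in S/S shControl (log2 fold change -0.45, SE 0.27, adjusted p = 0.631). Cyp3a13 measured 0.356, 0.957, 0.387 and 3.23 CPM in S/S shAtf4, against 1.16, 1.23, 0.550 and 4.91 CPM in S/S shControl (log2 fold change -0.49, SE 0.82, adjusted p = 0.893). Replicate 4 was the highest library of each group for Cyp3a13, and without S/S shControl replicate 4 its log2 fold change was 0.44. Cyp4f16 measured 19.3, 19.2, 17.4 and 17.04 CPM in S/S shAtf4, against 19.5, 18.8, 20.6 and 15.95 CPM in S/S shControl (log2 fold change -0.04, SE 0.12, adjusted p = 0.94). Cyp4v3, Cyp4f17 and Cyp4f13 had log2 fold changes of -0.58, -0.22 and -0.11.

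**Figure D5:**
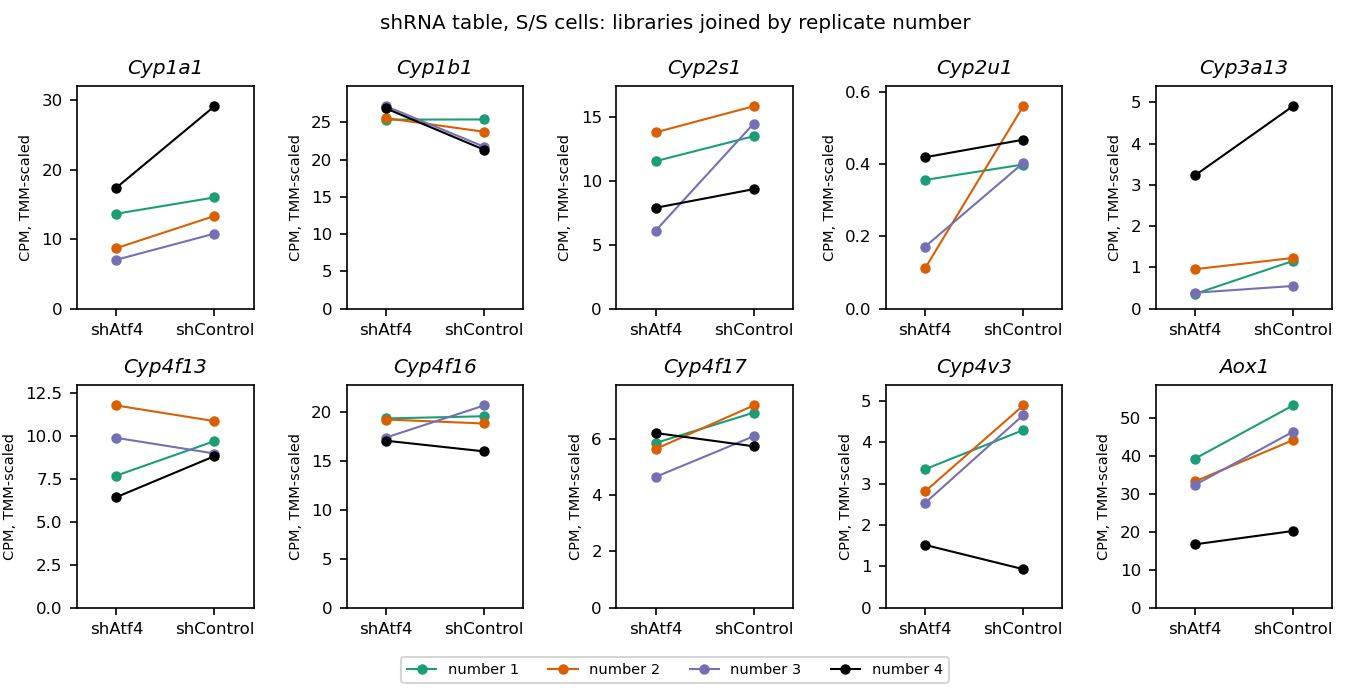
TMM-scaled CPM of the 10 members tested in the shRNA table, for S/S shAtf4 (left) and S/S shControl (right), with libraries of the same replicate number joined by a line (4 numbers, 1 colour each). Aox1, Cyp1a1, Cyp2s1, Cyp2u1 and Cyp3a13 are lower in S/S shAtf4 in each pair, and number 4 of Cyp3a13 stands above the rest in both groups.

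The other 17 members had too few counts for a test in the shRNA table. Cyp2c67, Cyp2c68, Cyp2c70 and the 4 Ces genes had no count there in any library. Cyp2c68 and Cyp3a13 averaged 4.36 and 16.9 CPM in S/S siControl, against 0 and 1.96 CPM in S/S shControl. Both are control S/S cells, but the tables were scaled separately, so this is set side by side without a test. Hnf4a, the liver and gut factor whose element was searched for above, averaged 231 CPM in S/S siControl and 3.64 CPM in S/S shControl. The summed hepatocyte markers were 0.450 to 1.35 CPM in S/S shAtf4 and 0.467 to 2.41 CPM in S/S shControl.

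The electron donor of the P450s and the receptors and factors that control their genes were read beside them. Por averaged 412 ± 28.6 CPM in A/A siChchd10 and 343 ± 9.89 CPM in A/A siControl (log2 fold change 0.27, SE 0.05, adjusted p = 1.62e-05), and 293 ± 10.04 CPM in S/S siChchd10 and 260.3 ± 11.2 CPM in S/S siControl (log2 fold change 0.17, SE 0.05, adjusted p = 0.00569). Hnf4a measured 456, 461, 475 and 423 CPM in A/A siChchd10, against 391, 408, 414 and 402 CPM in A/A siControl (log2 fold change 0.17, SE 0.05, adjusted p = 0.00266). In S/S cells it measured 308, 305, 279 and 289 CPM with siChchd10, against 242, 212, 235 and 237 CPM with siControl (log2 fold change 0.35, SE 0.05, adjusted p = 8.08e-07). Hnf4a therefore rose in both genotypes, by less than 2-fold. In the shRNA table it averaged 0.991 ± 0.485 CPM in S/S shAtf4 and 3.64 ± 1.15 CPM in S/S shControl (log2 fold change -1.93, SE 0.36, adjusted p = 0.0618), which passed only with the block (-1.90, adjusted p = 4.23e-05).

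Nr1i2, which encodes the xenobiotic receptor PXR, averaged 1.04 ± 0.280 CPM in S/S siChchd10 and 0.463 ± 0.0988 CPM in S/S siControl (log2 fold change 1.15, SE 0.20, adjusted p = 4.97e-05). In A/A cells it did not pass, at 5.96 ± 0.2496 CPM in A/A siChchd10 and 5.86 ± 0.227 CPM in A/A siControl (log2 fold change 0.03, SE 0.11, adjusted p = 0.861), and A/A siControl was higher than S/S siControl by 3.65 (log2 scale, SE 0.16, adjusted p = 5.04e-18). Ahr fell by 0.30 (log2 scale, SE 0.05, adjusted p = 9.71e-06) in A/A cells, with 83.2 ± 5.40 CPM in A/A siChchd10 and 103 ± 3.17 CPM in A/A siControl, and in S/S cells did not pass (log2 fold change 0.04, SE 0.05, adjusted p = 0.649). Nr1i3, which encodes the receptor CAR, stayed under 0.35 CPM in every siRNA library. Across the list of 26 regulators, 8 rose and 6 fell in A/A siChchd10, where 53.7% of all genes passed, and 9 rose and none fell in S/S siChchd10, where 28.0% passed. The largest rises in A/A cells were those of Ppara (1.42), a lipid receptor that rested on 37 counts in A/A siChchd10 and 12 in A/A siControl, and of Cebpa (0.80), with 112 ± 7.96 CPM in A/A siChchd10 and 64.3 ± 4.39 CPM in A/A siControl.

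Other enzymes of the same metabolism were counted from lists by role, and their counts stand beside the same shares of all genes, 53.7% in A/A and 28.0% in S/S cells. Of 19 tested conjugation genes (UDP-glucuronosyltransferases, sulfotransferases and others), 15 rose and 1 fell in A/A siChchd10, with a list median of 0.59, and 9 rose and 1 fell in S/S siChchd10, with a median of 0.28. In A/A cells Ugt1a9 rose by 2.40 (log2 scale, SE 0.35, adjusted p = 1.65e-06), and Sult2b1 was the fall (log2 fold change -0.39, SE 0.09, adjusted p = 0.000477). Of 23 tested oxidases, hydrolases and P450 partners outside the rule, 11 rose and 6 fell in A/A siChchd10 (median 0.23), and 8 rose and 4 fell in S/S siChchd10 (median 0.09). Maob, a monoamine oxidase, rose by 1.52 (log2 scale, SE 0.04, adjusted p = 2.63e-20) in A/A cells, and Nqo1, a quinone reductase, fell by 2.33 (log2 scale, SE 0.12, adjusted p = 1.46e-14).

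Of 10 tested P450s of other families, 2 rose and 2 fell in each genotype, with medians of 0.0057 in A/A and -0.046 in S/S cells. In A/A cells Tbxas1, thromboxane synthase, rose by 0.63 (log2 scale, SE 0.19, adjusted p = 0.00619) and Cyp27a1, a sterol hydroxylase, fell by 0.71 (log2 scale, SE 0.16, adjusted p = 0.000499). Of 22 tested aldehyde and retinoid genes, 11 rose and 6 fell in A/A siChchd10 and 10 rose and 5 fell in S/S siChchd10. Adh1, an alcohol dehydrogenase, rose by 1.78 (log2 scale, SE 0.13, adjusted p = 2.08e-10) in A/A cells, and Aldh1a1, a retinal dehydrogenase, rose by 0.98 (log2 scale, SE 0.05, adjusted p = 1.01e-13) in S/S cells. Of 13 tested arachidonate genes, 3 rose and 6 fell in A/A siChchd10 and 1 rose and 2 fell in S/S siChchd10. Of 19 tested drug transporters, 7 rose and 5 fell in A/A siChchd10 and 7 rose and 3 fell in S/S siChchd10, with Abcc2, an organic anion exporter, higher by 1.35 (log2 scale, SE 0.09, adjusted p = 4.04e-10) in A/A cells.

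The same lists were counted between the genotypes. In A/A siControl against S/S siControl, 14 conjugation genes were higher and 3 lower of 19 (median 1.11), and 19 partners were higher and 4 lower of 23 (median 0.62), where 70.2% of all genes passed. Fmo1, a flavin monooxygenase, was higher by 7.28 (log2 scale, SE 0.22, adjusted p = 9.55e-14). With shAtf4 none of the genes of these lists or of the regulators passed without the block. With it, where 20.2% of all genes passed, 7 of 18 partners fell and none rose, and in each of the other lists 0 to 3 genes rose and 1 to 6 fell.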

How the data were processed

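Counts of reads per gene, whole and without normalisation, were deposited by the authors in separate tables of 8 shRNA and 16 siRNA libraries. Each column matched 1 sample by name, and 0 columns were without a sample. Per the labels' protocols, total RNA was extracted with Trizol, libraries followed the TruSeq Stranded Total RNA protocol, and the molecule is named polyA RNA. The submitters' processing notes name build mm10 and DESeq2 1.24.0. For the aligner, counting program, strand setting and annotation, none is given in the sources used here.

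The counts were tested with edgeR 4.0.16 in R 4.3.3, separately by table: filterByExpr (14697 and 18138 genes kept), TMM scaling, and the robust quasi-likelihood test with 1 term per group. P-values were adjusted (Benjamini-Hochberg) over every gene in the fit, with a threshold of 0.05, and SE is the log2 fold change divided by the root of F. CPM are TMM-scaled, except that membership used CPM of library totals. The members and gene lists were chosen with earlier results of these data known. Every member may be named. Values in each library are given for up to 4 rises and 4 falls per comparison (3 each way for the interaction), and for the highest member of each family. The lists give up to 2 genes each way. Library values of Cyp1a1 in the shRNA table, of Cyp4f14, Cyp2c65 and Ces1d in A/A cells and of Hnf4a, and the array neighbours, were added after their values were seen.

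In the shRNA table, deviations from the group means correlated between same-numbered libraries (r = 0.450, 0.403, 0.241 and 0.789 over 14697 genes). Between different numbers among replicates 1 to 3, r was 0.121 to 0.314. S/S shControl 3 correlated more with S/S shAtf4 2 (0.314) than with S/S shAtf4 3 (0.241). The numbers were taken to pair the libraries, from the data and not the labels, and the pairing of replicates 1 to 3 is uncertain. Alternatives were DESeq2 1.42.0 as the test or as the scaling, no filter, the replicate block, leaving out libraries, and fitting 8 libraries alone. Intervals and floors cover counting error only.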

Additional observations from a re-analysis of the deposited data

Results flagged for a closer look

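In 13 of 91 groups of 4 libraries examined, 1 library stood apart from the other 3 by Dixon's test at the 95% level, which chance alone gives in about 1 of 20 groups of continuous values. Of these, 8 are replicate 4 of a shRNA group. Aox3, Cyp2c55, Cyp2c65 and Cyp4f14 measured 0.0349, 0.419, 0.0175 and 0.0349 CPM in S/S shAtf4 replicate 4 and 0 in the other 3 libraries. Those values are 2, 24, 1 and 2 counts in the deepest library of the group, and with 3 libraries at 0 any count sets the fourth apart, so the chance rate does not apply to these 4 groups. In S/S shControl replicate 4, Cyp2c23 measured 0.643 CPM (others at most 0.0688), Cyp2c55 1.05 CPM (at most 0.110), Cyp2c65 0.117 CPM (at most 0.0156) and Cyp3a13 4.91 CPM (at most 1.23). In A/A siChchd10 replicate 2, Cyp2c55 measured 14.5 CPM (others at most 9.02), Cyp2c68 63.5 CPM (at most 53.2) and Cyp3a13 60.5 CPM (at most 51.4). Aox3 measured 0.375 CPM in S/S siChchd10 replicate 1 (others at most 0.188). Cyp2c68 measured 7.47 CPM in A/A siControl replicate 1 (others at most 6.75).

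The siChchd10 effect differed between A/A and S/S cells for 12 members, by the test of the difference itself. The difference, A/A minus S/S on the log2 scale, was 3.43 for Cyp2c55, 2.62 for Aox3, 2.24 for Cyp2c70, 1.80 for Cyp2c68, 1.29 for Cyp2d26, 1.21 for Cyp4v3 and 0.25 for Cyp3a13. It was -1.496 for Cyp2s1, -0.82 for Cyp1b1, -0.61 for Cyp2c65, -0.51 for Cyp4b1 and -0.44 for Cyp4f17. Cyp2c55 and Aox3 were kept through A/A libraries alone, so the choice of members favoured their differences. Adjusted p-values ran from 2.34e-09 (Cyp2c68) to 0.0322 (Cyp3a13).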

How the results depend on the processing

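Of 1144 values of named members under alternatives, 1112 kept their direction and side of the threshold, 25 lost the call, 4 gained one and 3 changed sign. The sign changes were all in the shRNA table and between values that did not pass: Cyp3a13 ran from -1.71 to 0.44, the value without replicate 4 of S/S shControl, Cyp4f13 from -0.26 to 0.028 (without S/S shAtf4 4) and Cyp4f16 from -0.11 to 0.0064 (without S/S shControl 3). The count of genes called for shAtf4, 79, was 468 with DESeq2, 2969 with the replicate block, and 13 (without S/S shAtf4 2) to 1726 (without replicate 4 in both groups) when libraries were left out, with 536 without S/S shControl 4 alone; the cause was not tested. The count of members called there, 0, was 2 with the block and 0 to 2 with libraries left out, the 2 arising without replicate 4 in both groups. The number of members kept, 27, was 9 when both tables were required. With a library left out, the members called were 10 to 13 for siChchd10 in S/S, 24 to 24 in A/A, 11 to 14 for the difference between genotypes and 23 to 24 for A/A against S/S. Calls were lost for Aox1, Cyp1b1 and Cyp4f16 in S/S (Aox1 also in the fit of 8 libraries), Cyp3a13 in the difference, and Cyp2c67 and Cyp4f16 in A/A against S/S. All 24 A/A siChchd10 calls held in every alternative run. In the siRNA table same-numbered libraries did not deviate together (r = -0.0808 to 0.157 within S/S), so the block there is only a number; Cyp2c67 in A/A against S/S lost its call with it (1.70, adjusted p = 0.0637), and no other named member did. Values of members under 0.1 CPM rest on few or no counts, above all those of the Ces genes in S/S cells.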
